A study of Mus musculus with 2 samples.

Results

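The Schlafen genes of the mouse form a family of relatives that lie side by side on chromosome 11. The 7 genes described here are Slfn1, Slfn2, Slfn3, Slfn4, Slfn5, Slfn8 and Slfn9, chosen by symbol from 55536 annotated genes, of which 22028 are protein-coding. They were measured in the RNA that stays bound to chromatin in bone marrow-derived macrophages, which are macrophages grown from marrow cells in culture. The cells came from the C57BL/6J strain. All of them were given lipid A, the part of bacterial lipopolysaccharide that Toll-like receptor 4 senses, at 100 ng/ml for 12 h. After washing they were kept without it for 12 h, and a second dose of 100 ng/ml followed for 75 min. The 2 libraries are biological replicates 1 and 2 of this single condition, prepared after removal of ribosomal RNA from 250 ng and 500 ng of RNA, and they share 1 donor entry. The labels record neither sex nor age and do not spell out separate cultures, so the spread between the libraries may be partly technical. Unstimulated or once-stimulated cells were not analysed here, so the values are levels, not responses to lipid A.

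Schlafen proteins are grouped by size. The short ones (Slfn1, Slfn2) hold little beyond a shared core domain, the intermediate ones (Slfn3, Slfn4) carry an added middle part, and the long ones (Slfn5, Slfn8, Slfn9) also carry a helicase-like C-terminal part. Several are induced by type I interferon, the antiviral cytokine that macrophages release on Toll-like receptor 4 signalling, which acts through transcription factors such as STAT2 and IRF9 at DNA elements called ISREs. The family is known from the control of immune cell quiescence and, for human SLFN11, from restriction of HIV.

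The sequence just before the start site is shown for the 3 genes whose promoter window held the core of an ISRE and for the most abundant carriers of another shared run. Capitals mark these matches. Each line gives 160 bases up to the base before the RefSeq start site on GRCm38.p6, read 5′ to 3′ on the gene's own strand, which is minus for Slfn8 (chr11:83020811-83020970) and Slfn9 (chr11:82991831-82991990) and plus for Slfn5 (chr11:82951942-82952101), Slfn4 (chr11:83175026-83175185) and Slfn2 (chr11:83064952-83065111).
Slfn8: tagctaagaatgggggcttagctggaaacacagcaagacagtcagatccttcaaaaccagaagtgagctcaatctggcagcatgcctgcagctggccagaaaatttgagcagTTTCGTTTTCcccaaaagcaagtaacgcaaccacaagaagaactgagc
Slfn9: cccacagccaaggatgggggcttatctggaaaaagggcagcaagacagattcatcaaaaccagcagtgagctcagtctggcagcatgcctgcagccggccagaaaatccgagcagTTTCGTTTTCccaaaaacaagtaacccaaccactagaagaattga
Slfn5: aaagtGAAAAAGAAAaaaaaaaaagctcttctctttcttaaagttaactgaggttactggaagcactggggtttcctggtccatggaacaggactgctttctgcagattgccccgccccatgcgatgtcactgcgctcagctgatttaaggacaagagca
Slfn4: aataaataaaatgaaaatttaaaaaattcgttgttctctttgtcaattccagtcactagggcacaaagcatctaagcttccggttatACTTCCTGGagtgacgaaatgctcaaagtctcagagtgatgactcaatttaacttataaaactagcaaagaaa
Slfn2: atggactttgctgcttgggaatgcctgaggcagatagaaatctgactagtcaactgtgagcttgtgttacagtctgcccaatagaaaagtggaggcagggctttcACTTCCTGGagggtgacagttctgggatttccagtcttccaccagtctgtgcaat

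An ISRE core, searched as GAAANNGAAA on both strands in the RefSeq windows of 250 bases before to 50 after the start, was present in 3 of 7 members, against 3.99% of the 27025 genes in the table. In Slfn8 it lay at positions -48 to -39 from the outer of 2 RefSeq starts and in Slfn9 at -45 to -36, both on the strand opposite to the gene. In Slfn5 it lay at -155 to -146, on the gene's strand and followed by a run of A, counted from the RefSeq start at 82952102, whereas the annotation used for the counts starts the gene at 82951349. The Slfn8 and Slfn9 windows were 80.8% identical over 312 aligned columns, whereas the other 20 pairs of members had 46.5% to 53.0% identity. With 1 mismatch allowed outside the gap, all 7 members had a match, but so had 38.9% of all genes. Of the 6 genes of the IFIT family, classical interferon targets, 5 had the exact core.

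The windows of the short and intermediate genes had no exact ISRE core but shared the run ACTTCCTGG, in each on the gene's strand. It began at -74 in Slfn1, -55 in Slfn2, -42 in Slfn3 and -73 in Slfn4, and none of the long genes had it. This run was picked out after the sequences had been seen, as the longest one shared by those 4 windows, and 0.999% of all genes held it on either strand. The palindrome TTCNNNGAA, the GAS element bound by STAT dimers, was in none of the 7 windows and in 9.55% of all genes. An NF-kB consensus was in those of Slfn1 and Slfn9, and in 5.14% of all genes. These matches describe letters in a window and not bound sites.

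The depth was 18388793 expected counts on annotated genes in replicate 1 and 17640464 in replicate 2. The authors deposited 2 quantifications of the same reads, 1 derived from alignments to the transcriptome, used here unless stated otherwise, and 1 made without alignments, which assigned 32830001 and 30388561 counts. Levels are given in TPM, a relative abundance that corrects for transcript length and depth. Protein-coding genes summed to 259313 and 279812 TPM, with the rest on other annotated classes and on rows outside the annotation. All 9 macrophage markers (such as Csf1r and Adgre1) reached 1 TPM in both libraries, with summed levels of 1229 and 830 TPM. By the alignment-based values no T cell, B cell, neutrophil, dendritic cell or fibroblast marker did, and 3 of 6 megakaryocyte and erythroid markers did. The T cell list summed to 0.12 and 0 TPM, with Cd3e, Cd3g, Cd2 and Lck at 0 counts in both libraries. In the alignment-free values it summed to 17.4 and 22.7 TPM, of which Cd3d made up 15.5 and 20.1 TPM. By those values 2 of 6 T cell, 1 of 5 B cell, 1 of 6 neutrophil, 2 of 4 dendritic cell and 1 of 5 fibroblast markers reached 1 TPM in both libraries. In bulk RNA, fewer cells of a type and less RNA per cell cannot be told apart.

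All 7 Schlafen genes were detected on chromatin, and their mean levels spanned 26.2-fold, from Slfn8 down to Slfn9. By the alignment-free values the span was 16.9-fold, with Slfn1 as the lowest gene. Slfn8, Slfn4, Slfn2 and Slfn5 formed a high set above 100 TPM, and Slfn3, Slfn1 and Slfn9 a low set near 10 to 20 TPM. The 4 high genes held 95.1% and 96.0% of all Schlafen counts. Each size group held 1 or 2 high members and 1 low member, so level did not follow protein size.

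**Figure D1:**
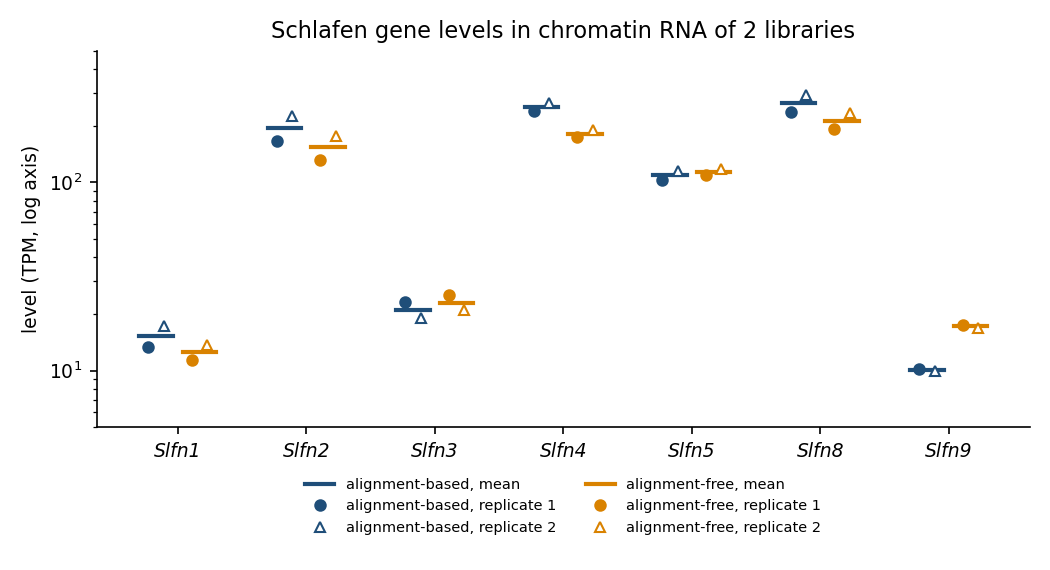
Level of each Schlafen gene in TPM on a log axis, with the alignment-based values at the left of each gene and the alignment-free values at the right. Filled circles are replicate 1, open triangles replicate 2 and bars the mean of the 2 libraries. Slfn8, Slfn4, Slfn2 and Slfn5 lie above 100 TPM and Slfn3, Slfn1 and Slfn9 below 30 TPM in both quantifications.

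Among the long genes, Slfn8 (910 codons in its full-length isoforms) was at 237 and 291 TPM in replicates 1 and 2, or 264 ± 38.4 TPM (SD, n = 2). Only 0.622% of protein-coding genes were higher. Its relative Slfn9, which also codes for 910 codons, was at 10.2 and 9.93 TPM (10.1 ± 0.198, SD, n = 2). Slfn8 and Slfn9, the pair with the most alike promoter windows, were thus 23.2-fold apart in replicate 1 and 29.3-fold in replicate 2, and 11.0-fold and 13.8-fold by the alignment-free values. Slfn5 (884 codons), a long Schlafen protein that is found in the nucleus, was at 103 and 115 TPM (109 ± 8.92, SD, n = 2).

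Among the intermediate genes, Slfn4 (602 codons), known to be induced in activated mouse macrophages, was at 239 and 265 TPM (252 ± 18.1, SD, n = 2). It had the most counts of the family, 14835 and 14811. Its neighbour Slfn3 had 23.1 and 18.9 TPM (20.99 ± 2.92, SD, n = 2), 12.0-fold less on the means and 7.90-fold less on the alignment-free means. Slfn4 thus lay far above Slfn3 in both libraries.

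Among the short genes, Slfn2 (378 codons), which mouse T cells and monocytes need for quiescence, was at 165 and 224 TPM (195 ± 41.4, SD, n = 2). Slfn1 (337 codons), known for restraining the growth of mouse thymocytes, was at 13.4 and 17.2 TPM (15.3 ± 2.66, SD, n = 2). Slfn2 was 12.3-fold and 13.0-fold above Slfn1 in the 2 libraries.

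In the order Slfn8, Slfn4, Slfn2, Slfn5, Slfn3, Slfn1, Slfn9, the library values of Slfn8 and Slfn4 overlapped, with Slfn4 higher in replicate 1 and Slfn8 in replicate 2. All other neighbours were apart. The closest values were 1.07-fold apart between Slfn4 and Slfn2 and 1.10-fold apart between Slfn3 and Slfn1.

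All 7 members reached 1 TPM in both libraries, against 40.1% of protein-coding genes. At 10 TPM it was 6 of 7 (17.9% of protein-coding genes), the exception being Slfn9, just under the threshold in replicate 2. At 100 TPM it was 4 of 7, against 2.04%. Since the family was chosen with earlier results of these data known, these shares only describe it. Together the 7 genes took 0.225% (95% Wilson interval 0.223 to 0.227) of annotated counts in replicate 1 and 0.249% (0.247 to 0.251) in replicate 2, intervals that cover counting error only.

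The Schlafen median was 109 ± 8.92 TPM (SD between the 2 library medians). Set beside listed genes of other interferon-linked families, it was near that of 8 oligoadenylate synthetases, which make the activator of RNase L (103 ± 9.99 TPM). It was above that of 8 guanylate-binding proteins, GTPases that attack pathogen vacuoles (87.6 ± 7.26 TPM), and of 6 IFIT genes, which bind viral RNA (33.6 ± 6.45 TPM). The Schlafen median is the level of Slfn5, and the next lower member, Slfn3, was at 20.99 TPM. Slfn14, at 0.07 TPM, was not in the list. The ranking of these medians thus depends on which genes are listed, and the lists may not cover a whole family. The median over all protein-coding genes was 0.290 TPM. Among the listed oligoadenylate synthetases Oasl2 was highest (660 and 1043 TPM) and Oas1c lowest (1.58 and 1.32 TPM). Among the listed guanylate-binding proteins Gbp5, which has been linked to inflammasome assembly, was highest (506 and 719 TPM) and Gbp7 lowest (57.4 and 67.3 TPM). Among the IFIT genes Ifit3 was highest (167 and 167 TPM) and Ifit1bl2 lowest (0.09 and 0.21 TPM). Every list thus had a wide internal range, and the top Schlafen genes stood above Ifit3 and below Gbp5 and Oasl2.

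Of the 13 interferon signalling genes, all reached 1 TPM and 11 reached 10 TPM in both libraries, with a median of 66.1 ± 1.78 TPM. The highest was Stat2, a subunit of the factor that binds ISREs, at 402 and 369 TPM. The lowest was Socs1, an inhibitor of Janus kinases, at 1.70 and 2.12 TPM. The range of this list thus took in the levels of all 7 Schlafen genes.

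Between the libraries the members differed by less than 2-fold. The log2 ratio of replicate 1 over replicate 2, scaled by TMM, was lowest for Slfn2 at -0.43 (counting SE 0.03) and highest for Slfn3 at 0.35 (0.08). It was -0.35 (0.10) for Slfn1, -0.28 (0.02) for Slfn8, -0.21 (0.02) for Slfn5, -0.12 (0.02) for Slfn4 and 0.04 (0.07) for Slfn9. With TMM, Slfn3 was the only member above 0 by more than its counting SE, although it lies next to Slfn4 on the same strand. These SEs cover counting error only. For Slfn9 the ratio was within its counting SE with TMM but not with total counts (0.11, SE 0.07) or alignment-free counts (0.12, SE 0.04).

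The median log2 ratio was -0.21 over the 7 members and 0.0030 over the 13247 genes with 10 counts in each library. Of all these genes, 7.25% were past 2-fold in either direction, and 0 of 7 members were. Replicate 2 also had the larger RNA input and the lower sum of macrophage markers. Adgre1 fell most within that sum (497 and 193 TPM), while Msr1 alone was higher in replicate 2 (251 and 307 TPM). The median of the 9 markers was 78.0 and 76.2 TPM. The part of RNA input or of the marker levels in these ratios was not tested. The summed levels of the listed oligoadenylate synthetases (1345 and 2013 TPM) and guanylate-binding proteins (1185 and 1563 TPM) were also higher in replicate 2. So were the Schlafen sum (791 and 941 TPM) and the sum over all protein-coding genes (259313 and 279812 TPM). Oasl2 (660 and 1043 TPM) and Gbp5 (506 and 719 TPM) differed most within their lists. Oas1c and, named after their values were seen, Gbp2, Gbp4 and Gbp9 were lower in replicate 2. The sum of the interferon signalling genes was lower there (1890 and 1670 TPM), and that of the IFIT genes was 365 and 366 TPM.

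The 7 genes have 21 annotated isoforms, of which 19 are protein-coding and 2 processed transcripts, and none is annotated as retaining an intron. Among 9283 protein-coding genes averaging 1 TPM or more, 64.6% have at least 1 retained-intron isoform. Reads of unspliced Schlafen precursor, which chromatin RNA holds, thus had no isoform of their own to go to. Protein-coding isoforms took 98.7% and 99.2% of Schlafen counts. The 2 processed transcripts belong to Slfn3 and Slfn5, so the counts of the other members could go to coding isoforms only.

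**Figure D2:**
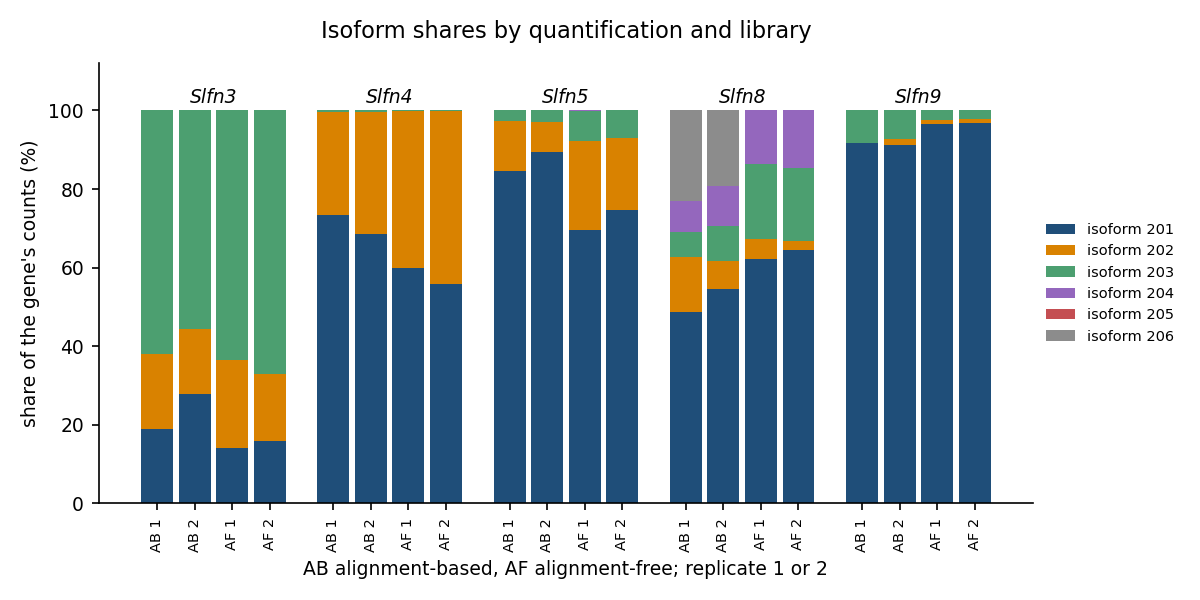
Share of each gene's counts by isoform, numbered as in the annotation, for the 5 members with several isoforms. Each gene has 4 bars, alignment-based (AB) replicates 1 and 2 and then alignment-free (AF) replicates 1 and 2. Slfn3 is mostly its processed transcript 203, and isoform 206 of Slfn8 is present in the alignment-based bars alone.

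Slfn5-204, the processed transcript of Slfn5, had 0 alignment-based counts in both libraries. In Slfn3 the coding isoforms held the smaller part of the counts. Slfn3-203, the processed transcript of Slfn3, took 518 of 835 counts in replicate 1 (posterior SD 13.7 counts) and 334 of 601 in replicate 2 (12.5). That was 62.1% and 55.6% of the gene by the alignment-based values, and 63.5% and 67.1% by the alignment-free ones. The isoforms that code for 517 and 640 codons shared the rest. In replicates 1 and 2 the first had 158 and 167 alignment-based counts and the second 159 and 100. The lower Slfn3 count in replicate 2 was thus not seen in every isoform.

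Slfn4 was divided between Slfn4-201 (73.4% and 68.4%) and Slfn4-202 (26.2% and 31.1%), which both code for 602 codons. For Slfn5, Slfn5-201 with the full 884 codons took 84.5% and 89.4%, or 69.5% and 74.6% by the alignment-free values. Slfn5-202, which also codes for 884 codons, took 12.8% and 7.79% by the alignment-based values. Slfn5-203, with 378 codons, took 2.70% and 2.84%. For Slfn9, Slfn9-201 took 91.8% and 91.3%. The isoform with the largest share of each of these genes was the same in both libraries and both quantifications.

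Slfn8 was spread most widely. Slfn8-201, with 910 codons, took 48.6% and 54.5%, and Slfn8-206, with 407 codons, took 22.9% and 19.4%. The assignment to Slfn8-206 was not shared by the 2 quantifications: it had 2877 and 2699 alignment-based counts (posterior SD 198 and 232) and 0 alignment-free counts in both libraries, where Slfn8-203, also with 407 codons, had 3237 and 3443. The gene total of Slfn8 carried a posterior SD of 1.84 and 2.11 counts. That SD does not cover the difference between the quantifications, 12535 and 13941 alignment-based counts against 17079 and 18515 alignment-free ones.

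The 7 genes span 264 kb of chromosome 11 (82951349 to 83215154, mm10). Slfn5, Slfn2, Slfn1, Slfn4 and Slfn3 are on the plus strand, and Slfn9 and Slfn8 on the minus strand. From left to right the members are Slfn5, Slfn9, Slfn8, Slfn2, Slfn1, Slfn4 and Slfn3, so that each low gene has a high member next to it.

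**Figure D3:**
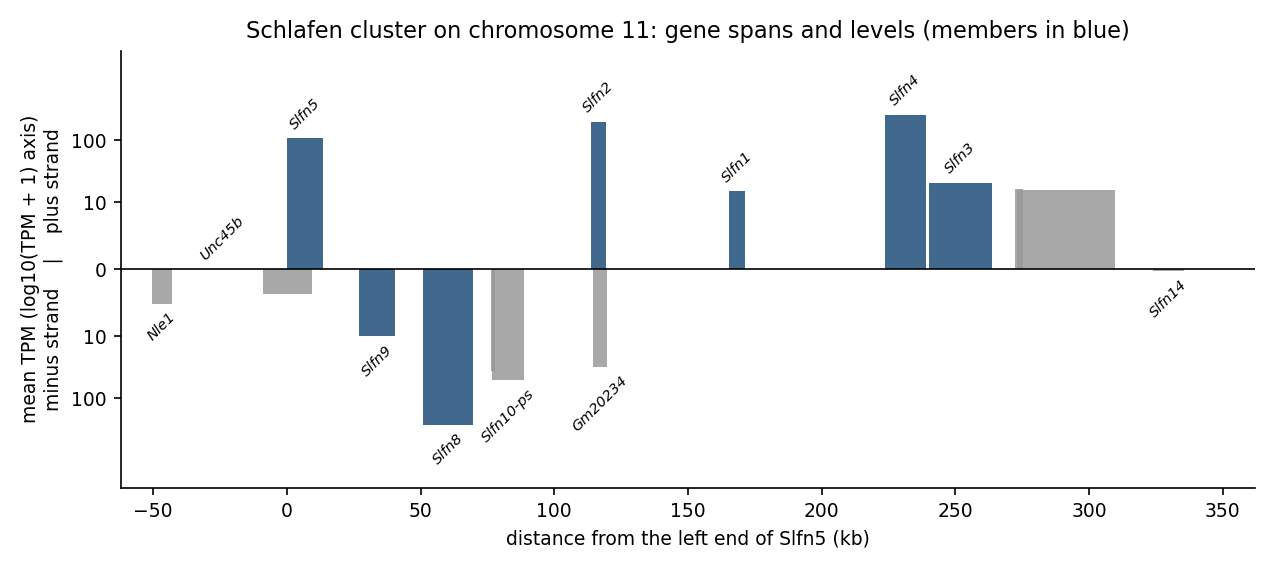
Gene spans along the Schlafen cluster, in kb from the left end of Slfn5, with height showing mean TPM of the 2 libraries on a log10(TPM + 1) axis, plus strand upward and minus strand downward. Members are blue, other genes grey. The flanking genes Nle1, Unc45b and Slfn14 are at 0 to 2.45 TPM, under every member.

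The protein-coding genes named here that lie nearest the cluster were low. Farther to the right Ap2b1, named after its values were seen, was at 36.4 and 39.0 TPM, above Slfn3, Slfn1 and Slfn9. The closest expressed protein-coding gene to the left was Nle1, a ribosome assembly factor 42.9 kb away, at 2.70 and 2.19 TPM. Between Nle1 and Slfn5, Unc45b, a muscle myosin chaperone named here after its values were seen, had 0 counts in both libraries. On the other side Slfn14, a long Schlafen gene known from platelets and red cell precursors, had 2 and 6 counts (0.03 and 0.11 TPM). Slfnl1, a Schlafen-like gene on chromosome 4, had 0 and 2 counts. Neither was above a floor of 3 counts in both libraries.

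The pseudogene Slfn10-ps lies inside the cluster, next to Slfn8, and was not silent. It had 49.8 and 55.0 TPM (52.4 ± 3.63, SD, n = 2), above Slfn3, Slfn1 and Slfn9. After its values had been seen, Gm11427, a pseudogene to the right of Slfn3, was looked up and had 13.9 and 18.9 TPM. Both pseudogenes share sequence with the coding members.

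Antisense genes overlap Slfn5 and Slfn2. Slfn5os, on the strand opposite to Slfn5, had 11.2 and 3.11 alignment-based counts and 109 and 78.2 alignment-free counts, with 559 of its 1102 exonic bases inside Slfn5 exons. Gm20234, opposite to Slfn2 and named after its values were seen, had 169 and 312 alignment-based counts but 2603 and 3825 alignment-free ones. None of its 717 exonic bases lies in a Slfn2 exon, and 550 lie in Slfn2 introns. Its level of 183 and 299 TPM by the alignment-free method was above that of Slfn2 (132 and 176 TPM). No label or header states how strand was treated, so antisense RNA and unspliced Slfn2 RNA cannot be told apart in these values.

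Because the members are close relatives, the share of their sequence that is unique bears on every count. Of the 31-base words in a gene's transcripts, read on either strand, 30.9% of those of Slfn3 also occur in another gene, 27.3% for Slfn8, 24.6% for Slfn9, 20.9% for Slfn4, 13.4% for Slfn5, 10.8% for Slfn2 and 1.96% for Slfn1. Slfn8 shared 792 words with Slfn9 and 776 with Slfn10-ps, and Slfn3 shared 516 with Slfn4. The short and intermediate genes shared no word with the long ones.

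**Figure D4:**
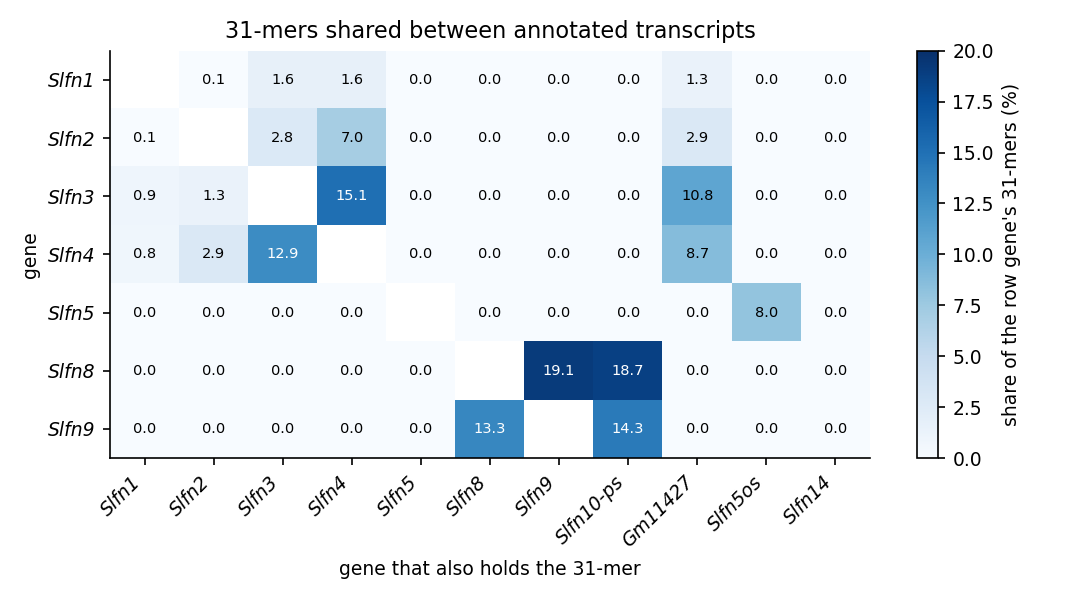
Share of the 31-base words of each Schlafen gene (rows) that also occur in the gene of the column, in percent, with the diagonal left blank. Sharing falls into 2 blocks, Slfn1, Slfn2, Slfn3 and Slfn4 with Gm11427, and Slfn8 and Slfn9 with Slfn10-ps, while Slfn5 shares words with Slfn5os.

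The count of Slfn9 depended most on the quantification. It had 832 and 739 alignment-based counts and 2599 and 2262 alignment-free counts. Over 6742 protein-coding genes averaging 100 counts or more, the median ratio of alignment-based to alignment-free counts was 0.602. Slfn9, at 0.323, was lower than all but 4.67% of them. Slfn4, at 0.846, was higher than 98.8% of them. Slfn2 (0.752), Slfn8, Slfn5 and Slfn1 were higher than 90.6%, 89.3%, 86.2% and 85.6% of them, and Slfn3 (0.529) than 29.8%.

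**Figure D5:**
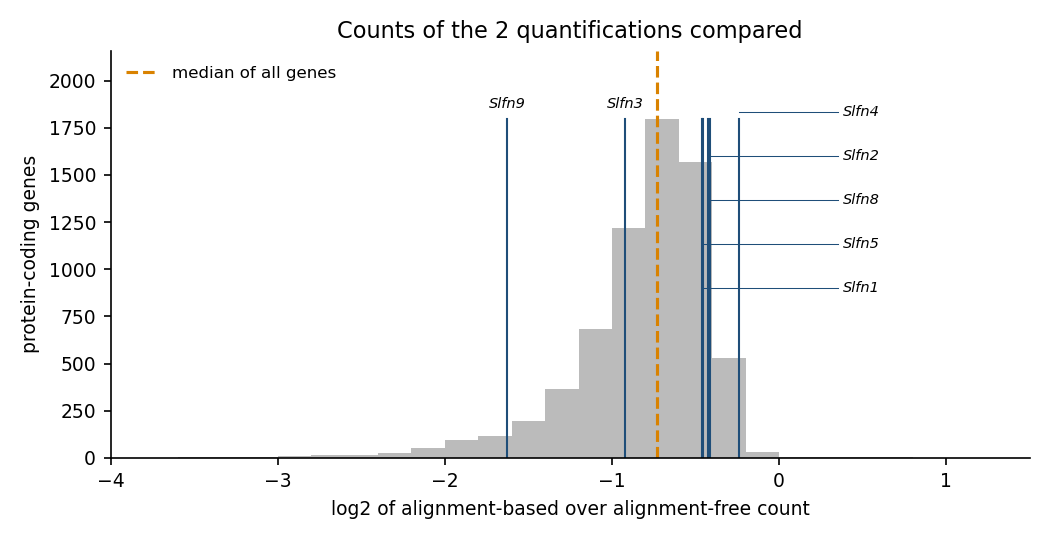
Histogram of the log2 ratio of alignment-based over alignment-free counts for 6742 protein-coding genes, with the members as blue lines and the median of all genes dashed. Slfn9 lies far to the left of the median and Slfn4 to the right, with Slfn1, Slfn2, Slfn5 and Slfn8 close together between the median and Slfn4.

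By the alignment-free values Slfn9 was at 17.6 and 16.9 TPM and Slfn1 at 11.4 and 13.8 TPM, so these 2 genes changed places in the order. The pair farthest apart was then Slfn8 and Slfn1 instead of Slfn8 and Slfn9. Slfn4 was at 174 and 189 TPM and Slfn2 at 132 and 176 TPM, so that their library values overlapped, whereas Slfn8, at 193 and 233 TPM, was apart from Slfn4. The division into 4 high and 3 low genes was the same in both quantifications. Whether shared sequence or unspliced RNA plays a part in the difference for Slfn9 was not tested.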

How the data were processed

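Chromatin-associated RNA of 2 libraries was analysed. Per the file headers, the authors deposited expected counts, TPM, effective lengths and posterior SDs from alignments to the transcriptome, and estimated counts and TPM from an alignment-free program; program names, versions and strand setting were not found in labels or headers. The build is mm10 with GENCODE M21, per the labels and files. Rows outside the annotation, 0.305% and 0.262% of counts, were left out. The levels are the deposited values; alignment-free values were summed per gene. The 2 libraries form 1 group, so no p-value was computed. Library ratios used expected counts rounded to whole numbers, a minimum of 10 counts per library and TMM (edgeR 4.0.16, R 4.3.3), with DESeq2 1.42.0 size factors as an alternative; the procedure was checked on simulated data. Intervals are 95% Wilson. Promoter windows are from RefSeq (GRCm38.p6), matched by symbol for all 7 members, and aligned with Biopython 1.88; 31-base words came from the GENCODE transcripts. Named are the members, other Slfn genes, the nearest expressed protein-coding gene on each side, and the highest and lowest gene of each list; others are marked in the text, and 1 gene under this rule is not reported here. Members and lists were chosen with earlier results of these data known. Other quantification, scaling, filter, denominator and single-library settings were tried.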

Additional observations from a re-analysis of the deposited data

Results flagged for a closer look

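A pair of microRNA genes inside Schlafen introns had counts in the alignment-free quantification and 0 in the alignment-based one, a signal outside the main measurement. Mir7679, whose 63 bases lie in an intron of Slfn9 on the same strand, had 162 estimated counts in replicate 1 and 162 in replicate 2. Gm27598, 63 bases in an intron of Slfn10-ps on the same strand, had 17 and 12. Both were singled out after their values had been seen. The labels give a library size range of 250 to 400 bp, so these counts cannot be told apart from unspliced RNA of the host gene.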

How the results depend on the processing

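The count of members at 1 TPM (7) and past 2-fold (0) was the same in every setting tried for it. At 10 TPM it was 6, and 7 with alignment-free values or with TPM rescaled over protein-coding genes. The list median of 109 TPM was 114 TPM with alignment-free values and 404 TPM when rescaled over protein-coding genes, a change of denominator that raised all 7 genes. With alignment-free values 4 of 7 genes moved by more than the SD between libraries, Slfn9 to a higher level and Slfn1, Slfn4 and Slfn8 to a lower one; the cause was not tested. The mean share of annotated counts, 0.237%, was 0.180% with alignment-free values and 0.409% of protein-coding counts. The protein-coding isoform share, 99.0%, was 98.4% with alignment-free values. The median log2 ratio of replicate 1 over replicate 2 was -0.14 with total counts and -0.12 with alignment-free values, against -0.21 with TMM. The ISRE core was in 7 windows with 1 mismatch allowed. Leaving out 1 library gave list medians of 103 to 115 TPM, 7 to 7 members at 1 TPM, 6 to 7 at 10 TPM, count shares of 0.225% to 0.249% and coding isoform shares of 98.7% to 99.2%. With 2 libraries an SD is itself imprecise. No paired analysis was possible because the study has a single group.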
